A study of Oryza sativa Japonica Group with 6 samples.

Results

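The momilactone gene cluster of rice was examined in leaf blades of a linalool synthase transgenic line and its wild type, together with DPF, a transcription factor known to act on it. The genes were taken by locus: CPS4 (Os04g0178300), CYP99A3 (Os04g0178400), MAS (Os04g0179200), KSL4 (Os04g0179700) and CYP99A2 (Os04g0180400) on chromosome 4, and DPF (Os01g0196300) on chromosome 1. These 6 loci, of 28855 with a probe on the array, carried 11 of 42429 probes. All 6 passed the filter on dim signals, with 10 of their 11 probes, and every probe is accounted for here. CPS4 and MAS passed it on both groups. KSL4, CYP99A2, CYP99A3 and DPF passed it on wild type alone.

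Momilactones are diterpenoids that rice makes as antifungal phytoalexins after infection and also releases from its roots, where they hold back neighbouring plants. Their synthesis starts from geranylgeranyl diphosphate, the common plastid precursor of diterpenes, which a pair of cyclases closes into a tricyclic hydrocarbon that cytochromes P450 and a dehydrogenase then oxidise. Most of these enzymes are encoded side by side on chromosome 4, a biosynthetic gene cluster of the kind known from several plant pathways. DPF is a basic helix-loop-helix protein known in rice to raise transcription of diterpenoid phytoalexin genes on chromosomes 2 and 4.

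RNA came from blades of the fourth leaf of Nipponbare seedlings at the 4-leaf stage, grown from seed in a growth chamber with no treatment. The arrays comprised 3 of wild-type plants, which carry no stated transgene, and 3 of Line13, a single transgenic line described as accumulating linalool and overexpressing a linalool synthase. No source at hand names the promoter that drives the transgene. Each sample pooled at least 3 plants. Total RNA was labelled with Cy3 and hybridised to one-colour rice oligonucleotide arrays. Levels are given as log2 of the processed spot signal over the array's own 75th percentile (control spots aside), so a level of 0 stands at that percentile.

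Over all genes the arrays fell into 2 sets. Signals correlated at 0.976 to 0.991 between wild-type arrays, at 0.902 to 0.979 between Line13 arrays and at 0.603 to 0.74 between the sets, across genes that are not independent replicates. The linalool synthase locus Os02g0121700 went against its label. Its levels were -3.32, -0.92 and -1.50 on wild-type replicates 1 to 3 and -6.52, -5.84 and -3.65 on Line13 replicates 1 to 3, a difference of -3.43 (SE 0.90, limma adjusted p = 0.0185). The locus passed the filter on wild type alone. Its value on Line13 replicate 1 was not well above background, so the size of the difference rests in part on a value not measured. Whether the probe reads the transgene is not known here, and the groups are therefore the arrays labelled wild type and the arrays labelled Line13 throughout. All wild-type arrays lay on one slide and all Line13 arrays on another, each with its own scan, so that slide and group cannot be told apart. Nothing in the labels says more of the replicates than that they are biological, and 3 arrays a group limit the precision.

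The cluster was lower on the arrays labelled Line13. Of its 5 genes, 4 passed the test (CPS4, MAS, KSL4 and CYP99A2), 0 were higher, and CYP99A3 missed the threshold. KSL4, CYP99A2 and CYP99A3 entered the test through wild type alone, the group where they were brighter, which favours a lower call. The background was broad: 28% of 22232 loci (and 28% of all tested probes) were called lower and 26.8% higher, at an adjusted p under 0.05 in limma's moderated test with Benjamini-Hochberg adjustment over all loci. Higher calls were 48.9% of all calls, and 36% with the array median as the scale, which shifted the median of all loci from -0.07 to -0.38. The median difference of the 5 genes was -2.73 on the log2 scale, against -0.07 over all loci. In bulk tissue, fewer cells of a type and less RNA per cell cannot be told apart.

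The first cyclase, CPS4, converts geranylgeranyl diphosphate to syn-copalyl diphosphate. Its brightest probe read -1.67, -1.22 and -1.97 on wild-type replicates 1 to 3, and -4.67, -5.53 and -3.50 on those of Line13. The groups did not overlap, as held in this direction for 35.9% of all loci. The difference was -2.95 (SE 0.52, 95% interval -4.20 to -1.70), a 7.71-fold lower signal (limma adjusted p = 0.00404). All 3 probes of CPS4 were called lower, with differences from -2.95 to -2.72. They target the coding sequence and 3′ untranslated region of 2 annotated transcripts.

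The second cyclase, KSL4, turns syn-copalyl diphosphate into syn-pimaradiene, the hydrocarbon skeleton of the momilactones. Its probe in the coding sequence read -3.99, -3.34 and -4.28 on wild type and -7.43, -7.33 and -5.03 on Line13, where replicate 1 was not well above background. All wild-type arrays lay above all Line13 arrays, and the nearest Line13 array was replicate 3. The difference was -2.73 (SE 0.67, 6.63-fold, limma adjusted p = 0.0146). The other KSL4 probe read -4.85, -4.15 and -4.94 on wild type and -7.69, -6.11 and -5.85 on Line13, a difference of -1.91 (limma adjusted p = 0.0215). Both probes were lowest on Line13 replicate 1, but they parted on replicate 2, which the first placed beside replicate 1 and the second beside replicate 3.

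CYP99A2 and CYP99A3 are closely related cytochromes P450 that oxidise the side methyl group of syn-pimaradiene on the way to the lactone ring. The levels of CYP99A2 were -2.46, -1.84 and -2.57 on wild type and -7.29, -7.14 and -3.89 on Line13. Line13 replicates 1 and 2 lay far below every wild-type array and replicate 3 only a little below. The difference was -3.82 (SE 0.91, 14.1-fold, limma adjusted p = 0.0126). In unscaled processed signal this was 131, 247 and 162 on wild type against 2.08, 11.1 and 62.7 on Line13, with replicate 1 of Line13 not well above background. This was the largest difference of the 6 genes as reported, but with the offset of 50 MAS (-1.59) and CPS4 (-1.55) exceeded CYP99A2 (-1.34).

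CYP99A3 was the exception in the test. Its levels were -1.58, -1.67 and -1.47 on wild type, the tightest of the 6 genes with an SD of 0.10, and -5.36, -4.46 and -1.58 on Line13, with an SD of 1.97. Line13 replicates 1 and 2 were far below wild type, and replicate 3 sat inside the wild-type range, so the groups overlapped. The difference was -2.23 (SE 0.91, 95% interval -4.43 to -0.03) with a limma adjusted p of 0.0787 and an unadjusted p of 0.0476. Without Line13 replicate 3 it was -3.34 (limma adjusted p = 0.000868), and with the array median as the scale -2.54 (limma adjusted p = 0.0396). Probe sequences were not used here, so signal shared between the CYP99A copies was not tested.

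MAS, the short-chain dehydrogenase known as momilactone A synthase, catalyses a late oxidation. Its brightest probe read -1.90, -1.90 and -2.72 on wild type and -4.82, -5.93 and -3.52 on Line13, without overlap. The difference was -2.58 (SE 0.61, 5.97-fold, limma adjusted p = 0.0126). A second probe of the same transcript gave -2.83 (limma adjusted p = 0.0103). The third MAS probe, for another annotated transcript, was not well above background on any of the 6 arrays and was not tested.

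DPF was dim on every array. It read -4.96, -4.54 and -5.23 on wild type and -6.02, -8.43 and -6.82 on Line13, where it was not well above background on any of the 3 arrays. The groups did not overlap, and the plain estimate put the wild-type signal 4.53-fold higher (difference -2.18, SE 0.60, limma adjusted p = 0.0219). That fold is no lower bound, and DPF entered the test through wild type alone. This call was lost without wild-type replicate 1 (-2.20, limma adjusted p = 0.0613) and without wild-type replicate 2 (-1.99, limma adjusted p = 0.0721). It was also lost with a background correction that adds an offset of 50 to every signal (-0.50, limma adjusted p = 0.438).

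**Figure D1:**
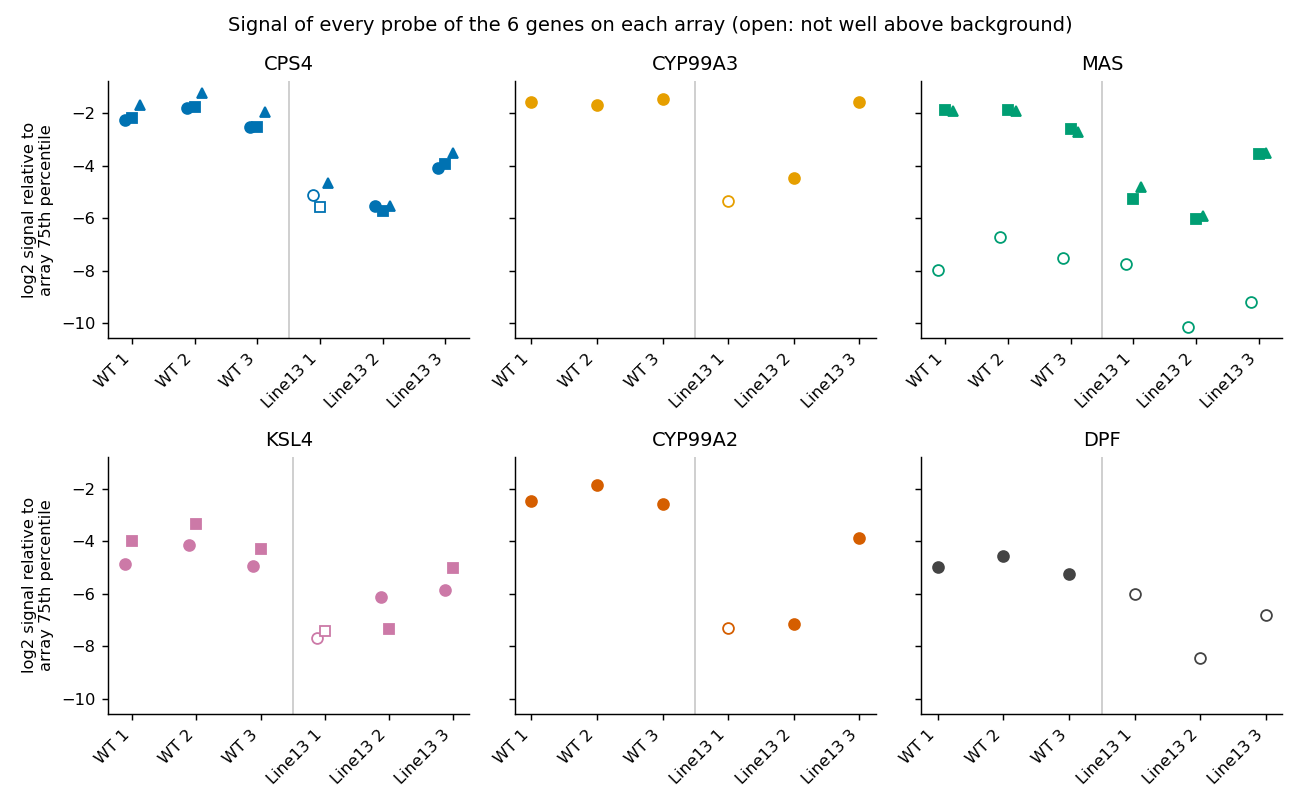
Level (log2 of the processed signal relative to the array's 75th percentile) of each of the 11 probes on the 6 arrays, 1 panel per gene and 1 symbol shape per probe, with open symbols where the probe was not well above background. The wild-type points lie above the Line13 points for every tested probe except that of CYP99A3, whose Line13 replicate 3 stands at the wild-type level of -1.58.

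Dimness set a limit on Line13 replicate 1. Of the 10 tested probes, 10 were well above background on each wild-type array, 3 on Line13 replicate 1, and 9 on each of Line13 replicates 2 and 3. The 75th percentile of signal was 325.5 on Line13 replicate 1, against 1559 and 932 on replicates 2 and 3 and 719.9 to 959.3 on wild type. The lowest level counted as well above background was -6.26 on that array, so the values of KSL4 and CYP99A2 there lie under the lowest level counted as measured. Adding the offset of 50 before scaling left 2 of the 5 cluster genes called lower, with KSL4 at -0.82 (limma adjusted p = 0.17) and CYP99A2 at -1.34 (limma adjusted p = 0.0574). The same correction without the offset left 4 called.

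For a single gene, an exact two-sided permutation test over the 20 splits of the arrays cannot give less than p = 0.1, the smallest value 3 against 3 allows. The exact test gave p = 0.1 for CPS4, MAS, KSL4, CYP99A2 and DPF and p = 0.2 for CYP99A3. CPS4 and MAS kept their call in 16 of 16 alternative settings. The plot of the 6 differences under each setting shows how far each one moved.

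**Figure D2:**
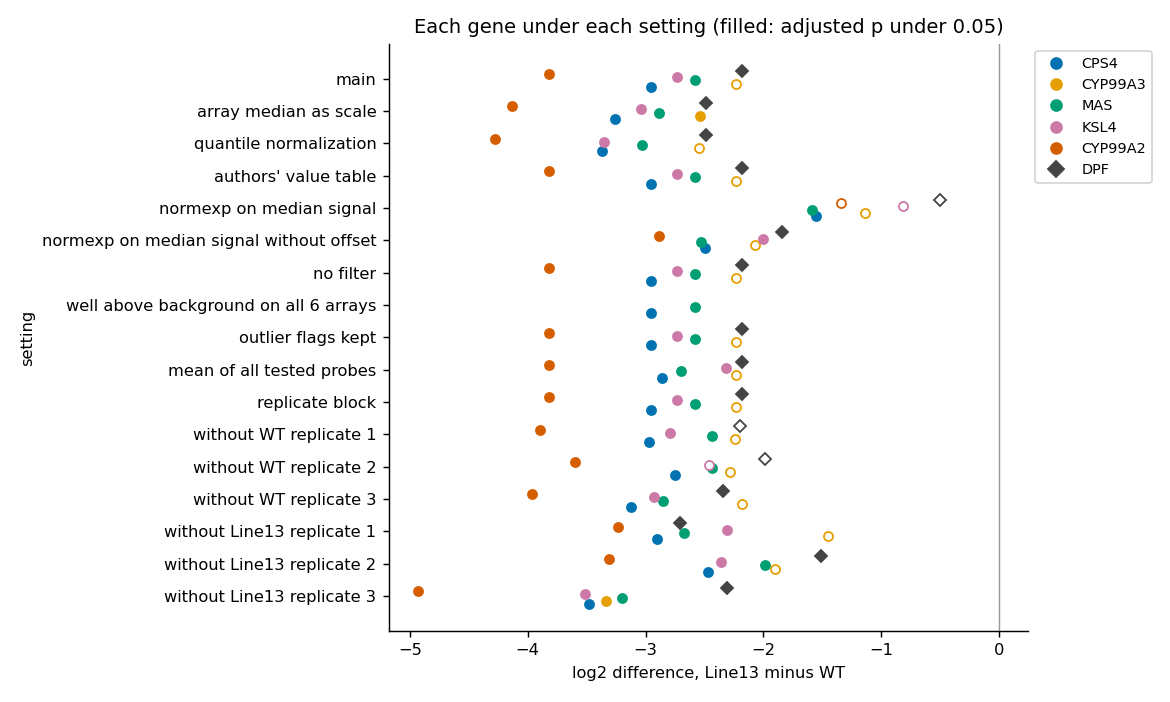
Difference in log2 level, Line13 minus wild type (horizontal axis), of the 6 genes under the reported setting (top line, main) and each alternative, with filled symbols where the limma adjusted p was under 0.05. Every difference is negative, and the correction with an offset of 50 gave the smallest ones, from -1.59 for MAS to -0.50 for DPF.

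Within the groups, the cluster genes moved together array by array on Line13. All 5 were highest on Line13 replicate 3, by 1.06 (CPS4), 1.23 (MAS), 1.57 (KSL4), 2.22 (CYP99A3) and 2.22 (CYP99A2) above the mean of the Line13 arrays. All 5 were below that mean on replicate 1 (by 0.06 to 1.56) and on replicate 2 (by 0.66 to 1.17). All 9 tested probes of the cluster were highest on replicate 3, too. With the offset of 50 added, 1 of the 5 genes (CYP99A3) was highest on replicate 3 and the other 4 on replicate 1, the array of lowest signal. Without the offset, with the array median as the scale and after quantile normalization it was 5 of 5. Over all loci, 33.7% were highest on that array, and 57.4% of the loci called lower were. A rise of 1.06 or more there, the smallest of the 5, was seen in 3.1% of all loci and in 3.14% of those called lower.

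The order of Line13 replicates 1 and 2 was not shared. CYP99A3, KSL4 and CYP99A2 were lowest on replicate 1, the order seen for 27.5% of all loci. CPS4 and MAS were lowest on replicate 2, the order of 6.19%. The first 3 genes were those not well above background on replicate 1, so their place below replicate 2 was not measured on both sides.

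Line13 replicate 3 also differed from the other Line13 arrays in cell type markers. The summed linear level of 4 dividing-cell genes, relative to the array's 75th percentile, was 10.6, 8.20 and 5.92 on Line13 replicates 1 to 3 and 0.492 to 0.765 on wild type, and 4 of 4 were called higher on Line13. That of the shoot meristem genes was 0.348, 0.685 and 0.0642 against 0.0312 to 0.0886, with 1 of 2 tested called higher. The 2 root genes, which no wild-type array read well above background, summed to 26.1, 24.5 and 29.5 against 0.00743 to 0.0145, and both were called higher. Leaf blade genes, 7 Rubisco small subunit and chlorophyll-binding protein genes, summed to 482, 951 and 1040 against 1030 to 1280 on wild type, and 0 of 7 were called, although the sum on Line13 replicate 1 was the lowest. Replicate 3 had the least signal from dividing-cell and meristem genes of the Line13 arrays, and the highest from the cluster and from the linalool synthase locus. The part of these markers in the result was not tested.

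On wild type the movements were smaller and 4 of the 5 genes shared them. CPS4, MAS, KSL4 and CYP99A2 were highest on replicate 2, by 0.27 to 0.53 above the wild-type mean, and lowest on replicate 3, by 0.28 to 0.55. MAS stood 0.27 above its mean on replicates 1 and 2 alike. This order held for 9.87% of all loci, and 20.3% of loci were highest on replicate 2. CYP99A3 ran the other way, lowest on replicate 2 by 0.10 and highest on replicate 3 by 0.11. DPF shared the wild-type order, at -0.05, 0.37 and -0.32 from its mean, but not the Line13 one, at 1.07, -1.34 and 0.27, where none of its 3 values was well above background.

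**Figure D3:**
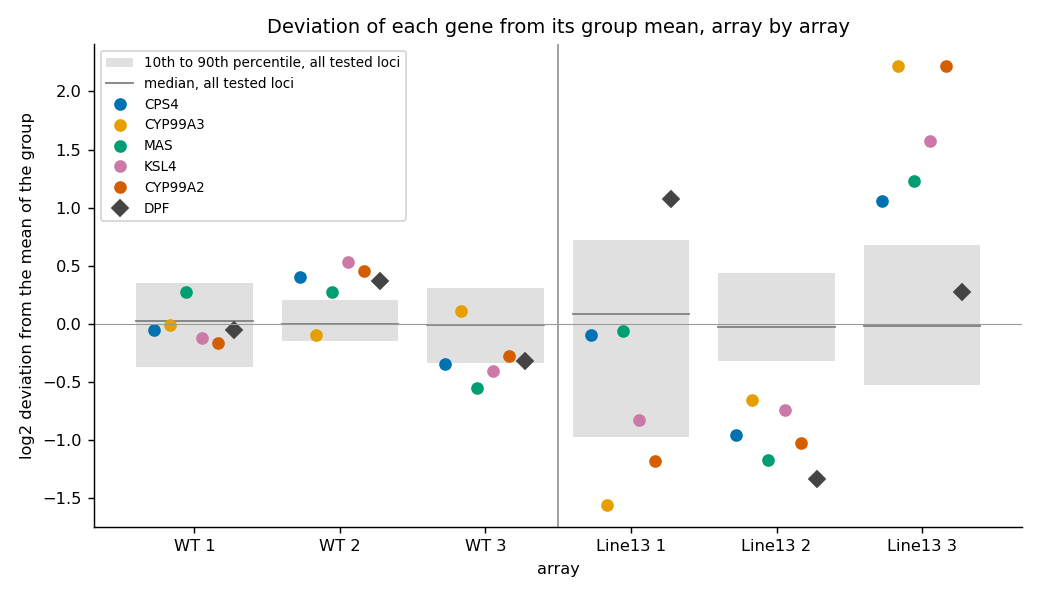
Deviation of each gene from the mean of its group on each array, in log2 units, with grey boxes for the 10th to 90th percentile of all tested loci and a grey line for their median. On Line13 replicate 3 the 5 cluster genes lie 1.06 to 2.22 above their mean, beyond the box that ends at 0.68, while DPF lies inside it at 0.27.

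The shared movement was measured by setting each gene against the mean of the other 4 on the same array. On Line13 the SD of KSL4, by its coding-sequence probe, fell from 1.36 to 0.19 when that mean was subtracted. It went from 1.97 to 0.90 for CYP99A3, from 1.92 to 0.63 for CYP99A2, from 1.20 to 0.75 for MAS and from 1.02 to 0.78 for CPS4. The other KSL4 probe, at -7.69, -6.11 and -5.85 on Line13, parted from the first on replicate 2 and was not set against that mean. On Line13 replicate 1, the values of KSL4 (-7.43) and CYP99A2 (-7.29) lay under the lowest level counted as well above background (-6.26). For the 22210 loci outside the cluster, subtracting the cluster mean raised the median SD on Line13 from 0.43 to 1.51, and 5.58% of them had a smaller SD afterwards. Subtraction must raise the SD of a locus that varies far less than the cluster mean, as the median locus did. That share therefore reflects the small spread of most loci and is no test of shared movement. DPF went from 1.23 to 1.65.

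On wild type the SD became smaller for CPS4 (0.38 to 0.10), CYP99A2 (0.39 to 0.18), KSL4 (0.48 to 0.24) and MAS (0.47 to 0.34). It grew for CYP99A3, from 0.10 to 0.51, an outcome fixed by the small spread of that gene. DPF, at 0.35 before and 0.05 after, followed the cluster mean on these arrays. Of the loci outside the cluster, 14.4% had a smaller SD afterwards, and those of small spread had to gain SD here too. With 3 arrays a group these are descriptions, and no correlation was computed over the 6 arrays because the groups form separate sets.

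The drop was not shown to differ between the genes. Relative to the other 4, CYP99A2 differed by -1.20 (exact two-sided permutation p = 0.1, n = 3 and 3), CYP99A3 by 0.79 (exact permutation p = 0.3) and MAS by 0.35 (exact permutation p = 0.6). KSL4 differed by 0.17 (exact permutation p = 0.5) and CPS4 by -0.11 (exact permutation p = 0.7). These are 5 comparisons of one family, and none could reach a lower p than 0.1 before any adjustment.

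From CPS4 to CYP99A2 in locus number the array held 7 loci, of which 6 were tested, 5 called lower and 0 higher, with a median difference of -2.84. Of those called, KSL4, CYP99A2 and Os04g0179100 entered the test through wild type alone, which favours a lower call. The 2 loci between the cluster genes were Os04g0180300, which had no tested probe, and Os04g0179100. Os04g0179100 read -3.13, -2.75 and -3.27 on wild type and -7.80, -7.23 and -4.42 on Line13, highest again on replicate 3. Its difference was -3.43 (SE 0.85, limma adjusted p = 0.0147), and no name is given to it in the files. On Line13 replicate 1 its value lay under -6.26, the lowest level counted as well above background there.

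Of 20 loci on either side of this span, between Os04g0175000 and Os04g0183000, 15 were tested, 3 were called lower and 4 higher, with a median of 0.37. Over all loci 28% were lower and 26.8% higher, so these counts are near the background. On the CPS4 side, the nearest tested locus, Os04g0177600, differed by 0.15 (limma adjusted p = 0.623). On the CYP99A2 side, Os04g0180900 was higher by 1.5 (SE 0.23, limma adjusted p = 0.00247), and 0 of the 5 tested loci there were lower. Farther out on the CPS4 side, Os04g0176400 was higher by 2.55 and Os04g0175600 lower (-2.24), and the largest difference was that of Os04g0177300, at 4.66 (limma adjusted p = 0.0159). On wild type, Os04g0176400 was not well above background on any array. Os04g0177300 was so on 1 of 3, at levels of -8.11, -8.15 and -3.79. The sizes of these 2 differences therefore rest on values not measured on both sides. In the RefSeq annotation of a newer assembly the span from CPS4 to CYP99A2 holds 9 entries. These are CPS4, CYP99A3, a long non-coding RNA, an unnamed protein-coding gene, MAS, a pair of long non-coding RNAs, KSL4 and CYP99A2, in that order.

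**Figure D4:**
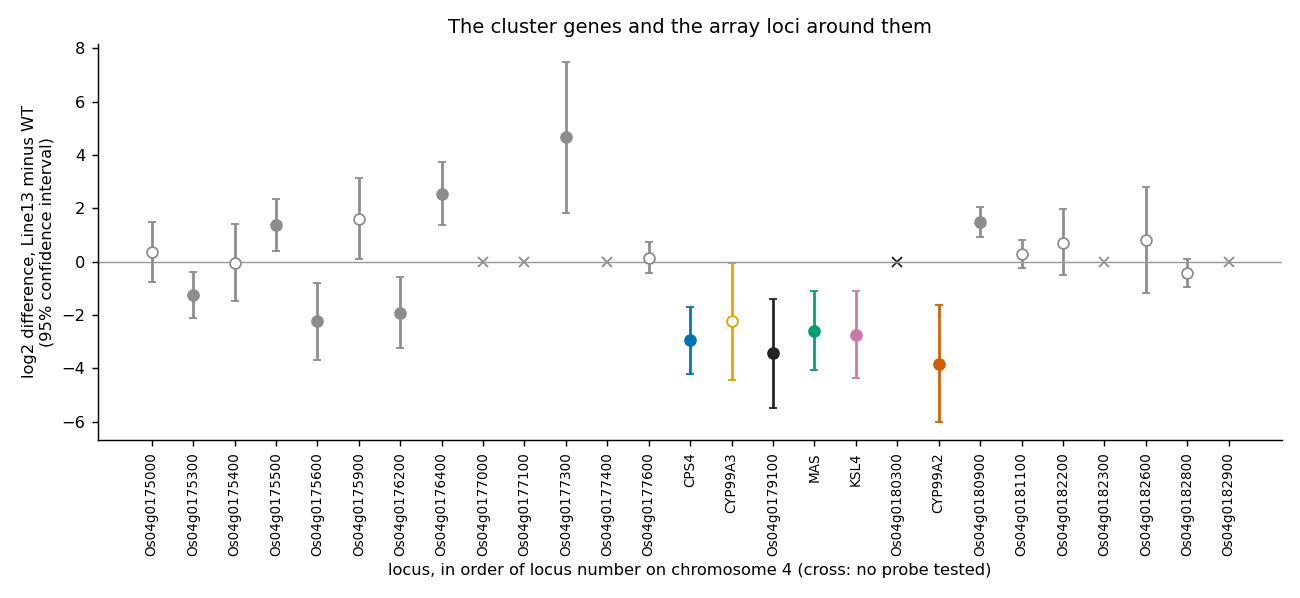
Difference in log2 level, Line13 minus wild type, with its 95% confidence interval, for the cluster genes and the array loci around them in order of locus number. Filled points passed the test and crosses mark loci with no tested probe. From CPS4 to CYP99A2 all 6 tested loci are negative, while the flanks range from -2.24 to 4.66.

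Momilactone synthesis also needs cytochromes P450 encoded elsewhere. CYP76M8, a hydroxylase that lies in the diterpenoid cluster of chromosome 2, was lower by 1.74 on the log2 scale (-1.74, SE 0.45, limma adjusted p = 0.0168). It entered the test through wild type alone. CYP701A8, a relative of ent-kaurene oxidase, was lower as well (-1.30, SE 0.34, limma adjusted p = 0.018). Without wild-type replicate 2, 0 of these 2 genes were called, and without wild-type replicate 1 only 1 was. CYP76M14, also counted among these steps, had no tested probe. Both tested genes were highest among the Line13 arrays on replicate 3, by 0.88 and 0.44, less than any of the 5 cluster genes.

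The chromosome 2 cluster, known for phytocassanes and other diterpenoids, had 4 of its 8 tested genes called lower and 0 higher, against 28% and 26.8% of all loci, with a median of -1.94. CYP76M8, already counted among the momilactone steps above, is counted again here as lower. CYP76M8, CYP71Z6, KSL6 and CYP76M5 entered the test through wild type alone, which favours a lower call. CYP76M7 was lower by 3.56 (-3.56, SE 0.77, limma adjusted p = 0.00878) and CYP71Z6 by 2.42 (-2.42, SE 0.34, limma adjusted p = 0.00157). CPS2, the cyclase that makes ent-copalyl diphosphate for this branch, differed by -2.15 (SE 0.58, limma adjusted p = 0.0199). The 4 genes not called had differences of -2.44 (KSL6) to -0.98 (CYP76M5). On Line13, 7 of 8 were highest on replicate 3, where the 8 genes stood 0.37 to 1.66 above their means, and on wild type 5 of 8 were highest on replicate 2. With the array median as the scale 8 of 8 were called lower, where 8324 of 22232 loci were, and with the offset of 50 the count was 2.

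Cyclases of gibberellin synthesis, which draw on the same precursor for a growth hormone, did not move one way. KS1, the ent-kaurene synthase, was lower (-1.30, SE 0.22, limma adjusted p = 0.00358). CPS1, which makes ent-copalyl diphosphate for gibberellins, was higher (1.85, SE 0.36, limma adjusted p = 0.00565). Its wild-type signal was clear of background on 2 of the 3 arrays. KSL10, which leads to oryzalexins, differed by -0.36 (limma adjusted p = 0.656), and KSL8 and KSL3 had no tested probe.

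Of 10 genes that supply geranylgeranyl diphosphate through the plastid methylerythritol phosphate pathway, 5 were called lower and 1 higher, against 28% and 26.8% of all loci. The higher one, DXS1, was not called with the array median as the scale, nor when Line13 replicate 2 or either of wild-type replicates 2 and 3 was left out. HDS (-2.47, SE 0.16, limma adjusted p = 6.86e-05) and HDR (-2.46, SE 0.19, limma adjusted p = 0.000127), the last steps of that pathway, were among the lower ones. So were MDS (-2.16, limma adjusted p = 0.000737) and DXR (-2.23, limma adjusted p = 0.000796). GGPPS1, a geranylgeranyl diphosphate synthase, differed by 0.31 (limma adjusted p = 0.277). Within Line13 the 10 genes deviated by -0.01 to 0.50 on replicate 3, each less than any cluster gene, and HDS read 2.41, 2.43 and 2.41 on the 3 arrays.

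Genes of elicitor signalling and phytoalexin control, which in rice act upstream of the cluster, included 7 of 13 called lower and 0 higher, against 28% and 26.8% of all loci, with a median of -1.30. Without wild-type replicate 2, 4 of 13 were called lower. The list was not split by whether a member raises or lowers the cluster genes, so the count gives no direction of control. WRKY45, a WRKY factor of salicylic acid signalling, was lower by 2.27 (-2.27, SE 0.39, limma adjusted p = 0.00356). TGAP1, a bZIP factor needed for elicitor-induced momilactone genes, was lower by 1.72 (-1.72, SE 0.30, limma adjusted p = 0.00377). WRKY53, a target of the chitin-responsive MAP kinase cascade, was lower by 1.82 (-1.82, SE 0.33, limma adjusted p = 0.00431). JAR1, which makes the active jasmonate conjugate, was lower by 1.30 (-1.30, SE 0.26, limma adjusted p = 0.00694). The chitin receptor kinase CERK1 differed by 0.00 (SE 0.21, limma adjusted p = 0.997).

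These regulators deviated by -0.32 to 0.71 on Line13 replicate 3, all less than the smallest deviation of a cluster gene. TGAP1, at -2.96, -2.41 and -2.69, had no Line13 array apart from the rest. WRKY53 did, at 0.06, 0.11 and 1.08, with replicate 3 the highest. The plot of the lists shows the cluster and the chromosome 2 genes to the left of the median of all loci, and the precursor and regulator lists spread on both sides of it.

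**Figure D5:**
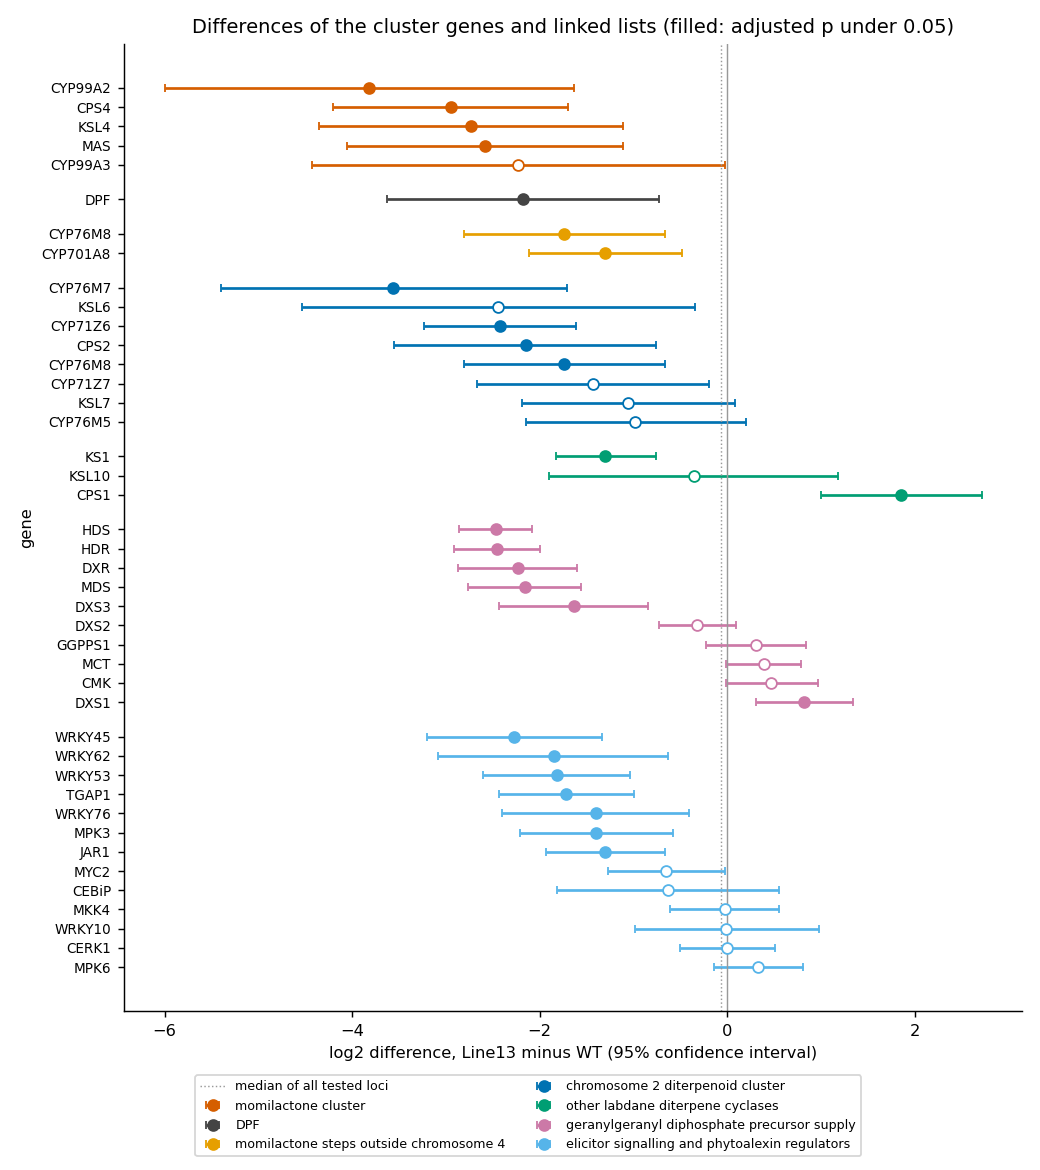
Difference in log2 level, Line13 minus wild type, with its 95% confidence interval, for each tested gene of the cluster and of the lists linked to it, filled where the limma adjusted p was under 0.05. The dotted line is the median of all tested loci (-0.07), and the cluster genes span -3.82 to -2.23.

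Likeness to the cluster was measured as the root mean square difference between a locus's profile and the mean of the 5 genes over the 6 arrays, each centred on its own mean, among 22210 loci. The nearest were Os11g0625900 (0.265) and Os04g0581000 (0.29), neither of which has a name in the files. Os04g0179100, inside the cluster, ranked 13th at 0.411. Of the linked genes, CYP76M7 was nearest at rank 111 (0.593), followed by CPS2 at rank 252 and CYP76M8 at rank 317. DPF stood at rank 2543 (1.011) and CPS1 at rank 18318. The measure is dominated by the difference between the 2 groups, and a rank is a description of these 6 arrays.

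Among the cluster genes themselves, KSL4 by its coding-sequence probe was nearer to the mean of the other 4 (0.194) than any other locus was. Its other probe was not ranked. CPS4 (0.456) had 18 loci nearer and MAS (0.507) had 35. CYP99A3 (0.715) had 306 and CYP99A2 (0.71) had 663.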

How the data were processed

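Per the labels, RNA of pooled leaf blades was labelled with Cy3 and hybridised to one-colour arrays. Per the file headers, the deposited processed intensity was made with Agilent Feature Extraction 10.10.1.1 (background-subtracted, detrended, linear, no scaling across arrays). The value table the authors deposited, also an intensity, is that signal times 1 constant per array.

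Levels, on the log2 scale, were fitted by limma 3.58.1 (R 4.3.3, lmFit and eBayes, no block), with Benjamini-Hochberg adjustment over 22232 rows and a threshold of 0.05. Controls, 48 design-control probes and outlier spots were dropped. Testing required at least 50% of a probe's spots well above background on all 3 arrays of a group, and a locus took its brightest tested probe. A fold over a group never well above background was set against the higher of each array's lowest such signal and the probe's own. For DPF the probe's own signal was the higher on every Line13 array, so its fold is the plain estimate and no bound.

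Members and lists were chosen with earlier results of these data known. Named genes are all members, up to 4 of each list with the smallest p, CPS1 and KS1, and 2 flanking loci each way. KSL10, KSL6, CYP76M5, GGPPS1, DXS1, CERK1, Os04g0177300 and Os04g0177600 were added after their values were seen. The files pair no names with loci. A RefSeq table of another assembly, used for names and order, held 25 of 45 list names, with 5 of the 6 genes but not DPF. Normexp (offset 50 or none) started from median signals, as the files used hold no mean signal, and was chosen after seeing the data. Steps were tested on simulated data. Figures used Python 3.11.15.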

Additional observations from a re-analysis of the deposited data

How the results depend on the processing

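The differences of the 6 genes kept their sign in every alternative run. The share of higher among all calls, 48.9% as reported, passed to the other side with the offset of 50 (50.9%), the replicate block (50.6%) and without wild-type replicate 2 (53.6%), among others. CPS4 and MAS kept their call in 16 of 16 alternatives (limma adjusted p 0.00126 to 0.0254 and 0.00308 to 0.0465), CYP99A2 in 14 of 15, KSL4 in 13 of 15 and DPF in 12 of 15, while CYP99A3 gained one in 2 of 15. Cluster genes called lower were 5 with the array median as the scale, and 4 after quantile normalization and with the authors' value table. Scaling by the array median moved the median of all loci from -0.07 to -0.38 and the share of higher among all calls from 48.9% to 36% (quantile 41.8%). Relative to the median of all loci, CPS4 was at -2.88 under both the 75th percentile and the array median. That match is fixed by arithmetic, because both scales shift all loci of an array alike, and is no test of the scale. Relative to the same median, CPS4 was at -3.12 after quantile normalization.

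With normexp and an offset of 50, the genes called lower were 2 in the cluster, 1 of the outside steps, 2 on chromosome 2 and 2 of the flanks, DPF was at -0.50 and 1 of 5 cluster genes was highest on Line13 replicate 3 (5 without the offset). The offset weighs most where signals are dim. Requiring all 6 arrays above background leaves fewer loci: 3794 loci were higher, 2 of 2 cluster genes lower, 2 of 2 highest on wild-type replicate 2 and on Line13 replicate 3, 1 outside step lower, 2 genes lower on chromosome 2, 2 flanking loci lower and 2 higher, and 0 other cyclases higher. Chromosome 2 genes called lower were 8 with the array median and 7 with quantile normalization. Precursor genes called higher were 0 with the array median, and with no filter 1 outside step was higher. The cause of the other changes was not tested.

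Leaving out 1 array gave 4700 to 7085 loci higher and 4066 to 7507 lower, with 4066 without wild-type replicate 2. Cluster genes called lower were 3 to 5, outside steps 0 to 2 lower and 0 to 1 higher, chromosome 2 genes 3 to 7, regulators 4 to 7, flanking loci 1 to 4 lower and 2 to 5 higher, and precursor genes higher 0 to 1. DPF ranged from -2.71 to -1.51. Without wild-type replicate 2, KSL4 was at -2.46 (limma adjusted p = 0.0522).

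Same-numbered arrays did not deviate together (correlations 0.108, -0.025 and -0.005), so the numbers do not pair the samples. With the replicate as a block, 5512 loci were higher and 5388 lower, 4 cluster genes and 2 flanking loci were lower, 0 precursor genes were higher, and DPF kept its call (limma adjusted p = 0.0394). Signal over background limits the cluster on Line13 replicate 1, where 7 of 10 tested probes were not well above it.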
